A study of Mus musculus with 8 samples.

Results

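The Lmo2 region of mouse chromosome 2 was examined in 2 sorted subpopulations of bone marrow progenitors by bulk ATAC-seq, which counts insertions of the Tn5 transposase into open DNA. Its members were all peaks of the deposited table that overlap positions 103720000 to 103830000 of chromosome 2 (mm9), taken by position. The region itself was chosen with earlier results of these data known. There were 28 such peaks of 134473 in the whole table. The Lmo2 gene was taken to span about 103798100 to 103822100 on the plus strand, so the region runs from 78.1 kb before that start to 7.9 kb past that end. Distances are from a peak's midpoint to that approximate start.

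Both groups were MPP2 cells of adult C57BL/6 mice aged 8 to 12 weeks. They were sorted from bone marrow by the absence of lineage markers and Flt3 and the presence of Sca1, Kit, CD150 and CD48. One group was Vwf+Gata1+ and the other Vwf-Gata1+, so all cells were sorted as positive for Gata1 and the sorts differed in Vwf. No treatment is named, and the labels do not say how Vwf and Gata1 were read in the sort or whether libraries came from separate animals. Each group had 4 libraries of 500 cells, and p-values therefore measure the spread between libraries, part of which may be technical. Total counts in peaks ran from 4628997 to 7753538 per library, of which the Lmo2 region held 1232 to 2213. Because the table pairs no peak with a gene, marker genes of the sorted cells were not analysed here.

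Lmo2 encodes a LIM-only protein without DNA binding of its own. In blood progenitors it bridges TAL1 with its E protein partners and GATA factors through LDB1, and the complex activates genes of stem, erythroid and megakaryocyte cells. Loss of Lmo2 in mice blocks blood formation, and misplaced expression drives T cell leukaemia. The mouse gene is transcribed from several promoters. Enhancers scattered upstream and within the gene act together in blood and endothelium in reporter studies.

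The region was densely open in both subpopulations. Its 28 peaks covered 15596 bp, or 14.2% of the region. Of 24020 windows of 110 kb laid end to end along the chromosomes, 76 held at least as many peaks (0.316%) and 392 at least as much summed signal (1.63%). These percentages count empty windows. The windows lay on a fixed grid, whereas the bounds of the region were set around a known locus, so the 2 are not strictly alike. The median window had 3 peaks and 7.63 CPM (counts scaled for library size) with empty windows included, and 6 peaks and 31 CPM over the 16829 windows that held a peak. The 110 kb just upstream had 12 peaks and 118 CPM, and the 110 kb just downstream had 21 peaks and 168 CPM, beside 278 CPM in the Lmo2 region. Per kb of peak, 26 of the 28 peaks lay above the median of all peaks (6.73 CPM per kb), and their own median was 14 CPM per kb. That median of all peaks, and the ranks among all peaks given below, include peaks later left untested for low counts. All 28 peaks of the region were tested. The peaks next outside the bounds, at 103717778 to 103718146 and at 103830702 to 103830934, had 2.71 and 1.19 CPM. The first and last members had 9.55 and 1.9 CPM. On the GRCm38.p6 gene table, another build, the protein-coding neighbours of Lmo2 are Caprin1 before it and 4931422A03Rik after it, with 5 lncRNAs and 2 pseudogenes between Caprin1 and Lmo2. Peaks were not placed in exons, introns or untranslated regions.

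**Figure D1:**
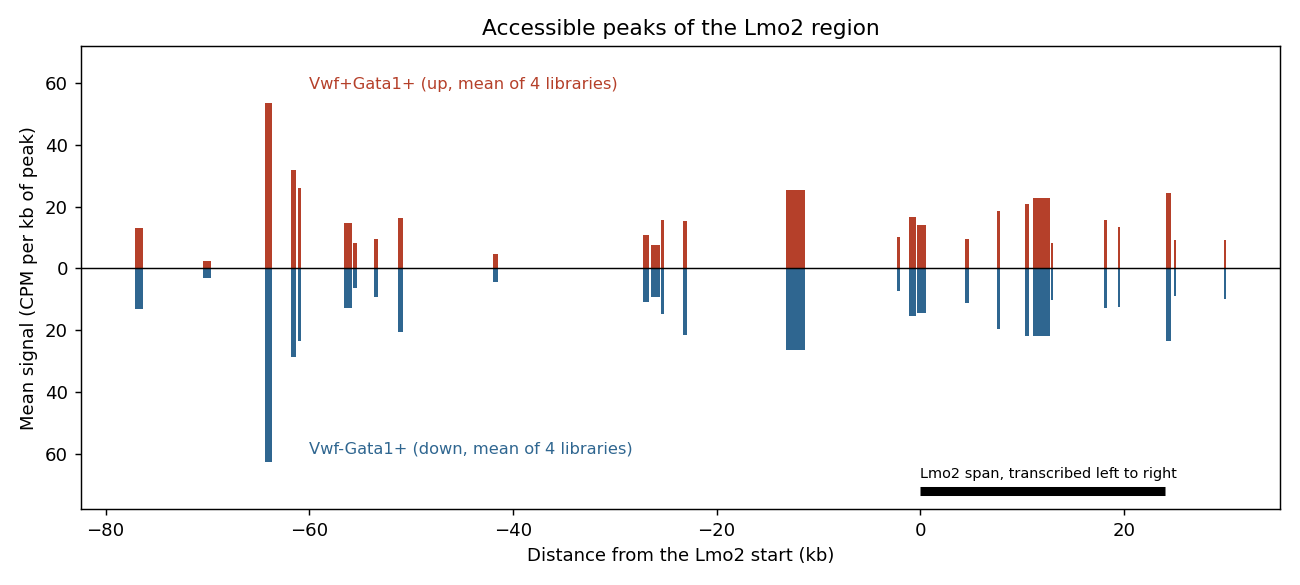
Mean signal of the 28 peaks in CPM per kb of peak width, against distance in kb from the approximate Lmo2 start, with Vwf+Gata1+ libraries drawn upward and Vwf-Gata1+ libraries downward (mean of 4 each). Bars have the width of the peak. The highest bar is the peak 64.0 kb upstream, at 53.5 and 62.7 CPM per kb, and the layout above and below the axis is alike.

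Upstream of the gene and within it, the share of signal was close to the share of peak width. The 17 peaks before the start held 67.2% of the region's signal and 66.7% of its peak width, and the 8 peaks in the gene span held 27.1% and 27.2%. Per kb of peak the signal was 17.9 CPM per kb upstream and 17.7 CPM per kb in the gene span. The 9 peaks more than 50 kb upstream summed to 95 ± 1.93 CPM in Vwf+Gata1+ and 98.5 ± 6.06 CPM in Vwf-Gata1+ libraries (mean ± SD of 4 libraries, in this order throughout). The 6 peaks from 10 to 50 kb upstream summed to 74.4 ± 4.71 and 79.9 ± 5.3 CPM. The 2 peaks within 10 kb upstream summed to 13.6 ± 1.99 and 12.1 ± 2.92 CPM. Those in the gene span summed to 75.5 ± 6.61 and 74.8 ± 3.35 CPM, and the 3 downstream peaks to 16.1 ± 2.08 and 15.7 ± 0.735 CPM. In each of these 5 position classes the ranges of the 2 groups overlapped.

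The region as a whole had nearly the same signal in both groups. Its summed signal was 277.5, 278.1, 282.4 and 260.1 CPM in replicates 1 to 4 of Vwf+Gata1+ cells. It was 289.2, 265.5, 284.9 and 284.1 CPM in replicates 1 to 4 of Vwf-Gata1+ cells. The lowest library was of the first group and the highest of the second, and replicates 1 to 3 of the first group lay between the values of the second. The means differed by 2.29%, a log2 ratio of -0.03, beside a pooled spread of 0.05 between libraries of a group on the same scale. This sum is given without a test.

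**Figure D2:**
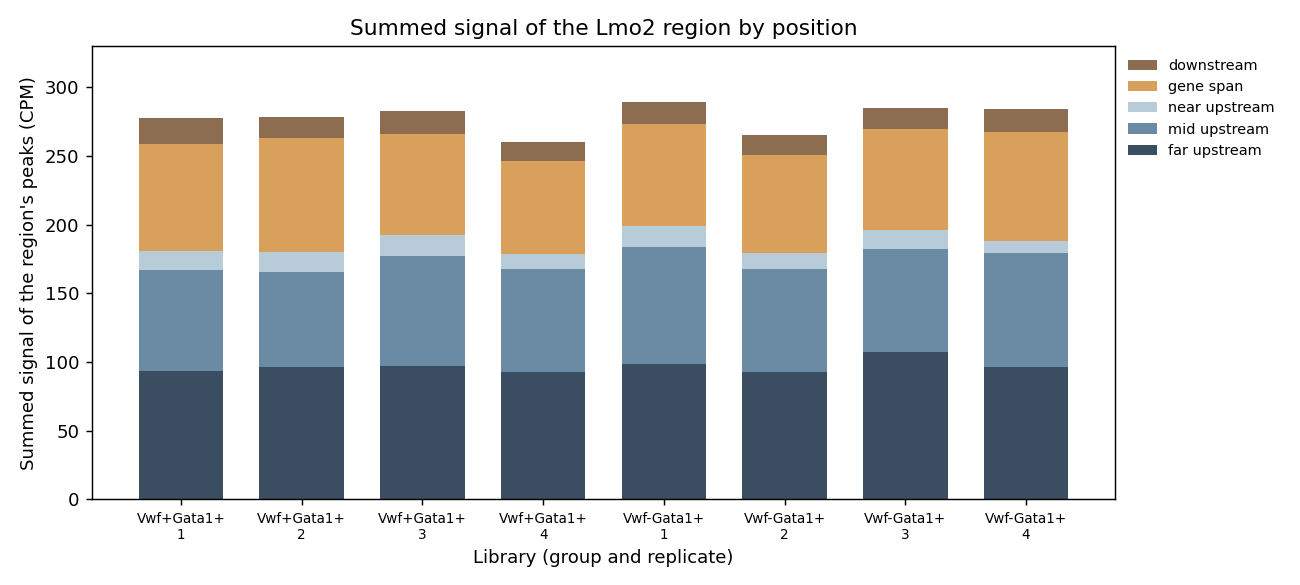
Summed signal of the region's peaks in CPM for each of the 8 libraries, stacked by position class relative to the gene. Totals run from 260.1 to 289.2 CPM, with the far upstream, mid upstream and gene span classes the largest in each library.

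In the region 0 of 28 peaks were called at an adjusted p under 0.05 by the quasi-likelihood test of edgeR, run on all 97040 peaks that passed the filter on low counts, with every peak of the region among them. Over all tested peaks the share called was 0.0144%, so a count of 0 among 28 is what that share gives and says little by itself. Adjusted p-values in the region ran from 0.555 to 1. Before adjustment, p was under 0.05 at 2 peaks of 28 (7.14%), beside 6.72% of all tested peaks. The ranges of the groups overlapped at all 28, and were separate at 3.88% of all tested peaks. DESeq2 and limma-voom also called 0 of the 28. Of the 28 log2 fold changes (Vwf+Gata1+ minus Vwf-Gata1+), 14 were above 0 and 14 below, beside 49.3% below 0 over all tested peaks. Their median was 0.01, beside 0 over all tested peaks.

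The intervals limit how large a difference these libraries leave room for. At 26 of 28 peaks, or 92.9%, the 95% interval excluded a 2-fold change in both directions, beside 85.6% of all tested peaks. At 14 of 28 it excluded a 1.5-fold change, beside 41.5%. The 2 peaks whose interval reached 2-fold were narrow and weak, at 103795799 to 103796063 and at 103810910 to 103811124, with mean counts of 14.8 and 12.5. In bulk libraries a smaller share of cells with an open site and a weaker opening in every cell cannot be told apart.

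**Figure D3:**
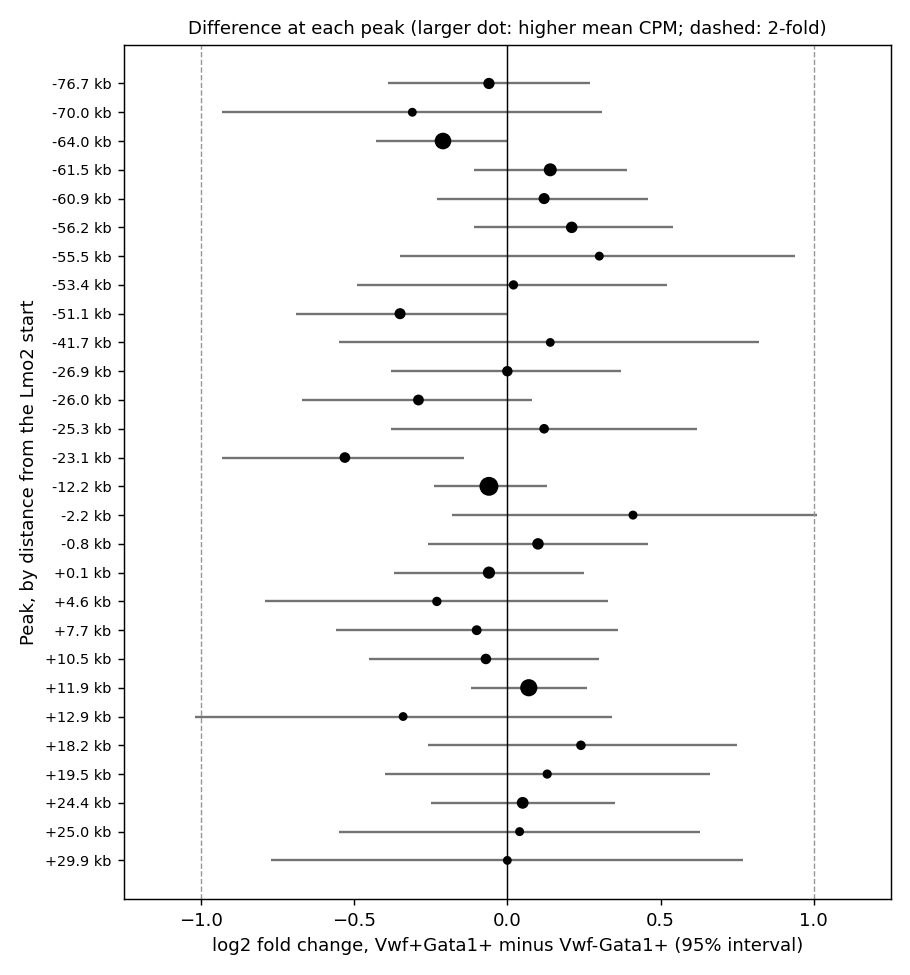
Log2 fold change at each of the 28 peaks with its 95% interval from edgeR, in order of distance from the Lmo2 start, with larger dots for peaks of higher mean CPM and dashed lines at 2-fold. Values run from -0.53 to 0.41, and the strongest peaks have the shortest intervals.

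At the start of the gene, as the span is drawn here, signal was moderate and the difference between the groups was smaller than its error. The peak over the start (103797775 to 103798691, 917 bp) had 10.4, 16.5, 11.7 and 13.1 CPM in replicates 1 to 4 of Vwf+Gata1+ cells. It had 11.5, 15.1, 12.3 and 14.7 CPM in replicates 1 to 4 of Vwf-Gata1+ cells. Replicate 1 was lowest and replicate 2 highest in both groups, and the groups overlapped over most of their range. The means were 12.9 ± 2.63 and 13.4 ± 1.77 CPM, a log2 fold change of -0.06 ± 0.15 (SE; 95% interval -0.37 to 0.25; edgeR adjusted p = 0.976). At 14.4 CPM per kb it ranked in the top 20.7% of all peaks, so the start was not the most open site of its own region.

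Both other peaks within 10 kb upstream had lower total signal than the start peak, although the nearer was slightly stronger per kb (15.9 CPM per kb). That nearer peak ends 102 bp before the start peak (103797015 to 103797672) and had 10.9 ± 1.53 CPM in Vwf+Gata1+ and 10.1 ± 2.88 CPM in Vwf-Gata1+ libraries. A weak peak 2.2 kb upstream (103795799 to 103796063, 265 bp) had the largest positive log2 fold change of the region. Its signal was 2.9, 3.0, 2.98 and 2.01 CPM in replicates 1 to 4 of Vwf+Gata1+ cells and 2.35, 2.0, 1.56 and 2.04 CPM in those of Vwf-Gata1+ cells. Replicates 1 to 3 of the first group lay above all of the second, and replicate 4 lay among them. The log2 fold change was 0.41 ± 0.29 (SE; 95% interval -0.18 to 1.01; edgeR adjusted p = 0.849), from 8 to 22 counts per library.

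The strongest peak of the region by total signal lay 12.2 kb upstream (103784916 to 103786795). It was 1880 bp wide, in the top 0.885% of all peaks by width, and held 17.5% of the region's signal. Its signal was 45.2, 44.1, 52.9 and 48.7 CPM in replicates 1 to 4 of Vwf+Gata1+ cells and 54.0, 45.1, 46.0 and 52.5 CPM in those of Vwf-Gata1+ cells. Each group had a pair of libraries near 45 CPM and a pair near 50 CPM or above, so the groups overlapped almost entirely. The log2 fold change was -0.06 ± 0.09 (SE; 95% interval -0.24 to 0.13; edgeR adjusted p = 0.955), the smallest error of any peak in the region. On the fold scale this interval ran from 0.845 to 1.09. With up to 413 counts in a library, this site leaves the least room for a difference between the subpopulations.

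Another 4 peaks lay close together between 26.9 and 23.1 kb upstream. The first 3 of them (103770875 to 103772962) stood 118 and 108 bp apart and together had 18.4 ± 1.84 CPM in Vwf+Gata1+ and 19.9 ± 2.35 CPM in Vwf-Gata1+ libraries. Their log2 fold changes were 0.00, -0.29 and 0.12, with no adjusted p below 0.823. The fourth, 23.1 kb upstream (103774829 to 103775239), had the lowest p of the region. Its signal was 5.79, 4.69, 8.48 and 6.04 CPM in replicates 1 to 4 of Vwf+Gata1+ cells and 7.58, 12.0, 7.22 and 8.76 CPM in those of Vwf-Gata1+ cells. Replicate 3 of the first group lay above replicates 1 and 3 of the second, and its other 3 libraries lay below all of the second. The log2 fold change was -0.53 ± 0.20 (SE; 95% interval -0.93 to -0.14), with an unadjusted p of 0.00987 in edgeR that did not pass adjustment (adjusted p = 0.555). Leaving out replicate 2 of Vwf-Gata1+ cells, the highest library, moved the log2 fold change to -0.36, and leaving out replicate 3 of Vwf+Gata1+ cells moved it to -0.68. The remaining peak between 10 and 50 kb upstream, 41.7 kb from the start, had 1.97 ± 0.787 and 1.8 ± 0.184 CPM. The stretch of 14275 bp between it and the peaks near 26 kb was the longest in the region without a peak.

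The most intense site per kb lay 64.0 kb upstream (103733805 to 103734399, 595 bp). At 58.1 CPM per kb it was in the top 0.511% of all peaks, and it held 12.4% of the region's signal. It had 33.7, 34.7, 27.0 and 31.8 CPM in replicates 1 to 4 of Vwf+Gata1+ cells. It had 33.3, 37.1, 46.0 and 32.8 CPM in replicates 1 to 4 of Vwf-Gata1+ cells. Replicate 3 gave the lowest value of the first group and the highest of the second, and the other 6 libraries lay between 31.8 and 37.1 CPM. The log2 fold change was -0.21 ± 0.11 (SE; 95% interval -0.43 to 0.00; edgeR adjusted p = 0.751). It was -0.10 without replicate 3 of Vwf-Gata1+ cells.

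Further peaks lay on both sides of that site. The peak 61.5 kb upstream (103736284 to 103736829) had 17.5, 16.9, 18.6 and 16.2 CPM in replicates 1 to 4 of Vwf+Gata1+ cells and 15.4, 14.6, 16.8 and 15.9 CPM in those of Vwf-Gata1+ cells. Replicates 1 to 3 of the first group exceeded all of the second, and replicate 4 lay below replicate 3 of the second. On the log2 scale the fold change was 0.14 ± 0.12 (SE), with an edgeR adjusted p of 0.894. A peak of 364 bp starting 148 bp further on had 9.45 ± 1.23 and 8.55 ± 1.36 CPM.

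The peak 56.2 kb upstream (103741511 to 103742273) had 11.7, 8.26, 13.5 and 11.8 CPM in replicates 1 to 4 of Vwf+Gata1+ cells and 10.8, 9.53, 8.19 and 10.1 CPM in those of Vwf-Gata1+ cells. Replicate 2 of the first group was lower than all but replicate 3 of the second, and its log2 fold change was 0.21 ± 0.16 (SE; edgeR adjusted p = 0.862). The peak 51.1 kb upstream (103746784 to 103747267) leaned the other way, with 6.85, 7.88, 9.4 and 7.48 CPM in replicates 1 to 4 of Vwf+Gata1+ cells and 11.0, 7.84, 10.7 and 10.1 CPM in those of Vwf-Gata1+ cells. Replicate 2 of the second group alone lay within the range of the first. The log2 fold change was -0.35 ± 0.17 (SE), with an unadjusted p of 0.0492 and an adjusted p of 0.742 in edgeR. Peaks given in every library include the 3 of lowest p in each direction, so opposite signs among them follow from that choice. None of them passed the test.

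The remaining far upstream peaks had between 2.15 and 9.55 CPM over all libraries. The 2 most distant, 76.7 and 70.0 kb from the start, differed several-fold in signal per kb, at 13.1 and 2.8 CPM per kb. The first (103721011 to 103721740) had 9.39 ± 1.1 CPM in Vwf+Gata1+ and 9.71 ± 1.04 CPM in Vwf-Gata1+ libraries. The second (103727689 to 103728456) was the least intense of the 28 per kb, with 1.93 ± 0.411 and 2.37 ± 0.278 CPM. The peaks 55.5 and 53.4 kb upstream had 2.26 and 3.31 CPM over all libraries, with log2 fold changes of 0.30 ± 0.32 and 0.02 ± 0.25 (SE).

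Within the gene the signal centred on a second wide peak, 11.9 kb past the start (103809165 to 103810858). It was 1694 bp wide, in the top 1.76% of all peaks by width, and held 13.6% of the region's signal. Its signal per kb, 22.3 CPM per kb, was close to the 25.8 CPM per kb of the wide upstream peak. It had 40.0, 38.8, 41.5 and 34.4 CPM in replicates 1 to 4 of Vwf+Gata1+ cells and 33.5, 35.4, 40.8 and 37.8 CPM in those of Vwf-Gata1+ cells. The groups overlapped over most of their range. Its log2 fold change was 0.07 ± 0.10 (SE; 95% interval -0.12 to 0.26; edgeR adjusted p = 0.943). It stood 419 bp from the peak before it and 51 bp from the one after it, and the 3 together (103808413 to 103811124) had 47.4 ± 3.11 and 46.3 ± 2.37 CPM. This intragenic site had 37.8 CPM over all libraries, beside 13.2 CPM at the start peak, or 22.3 beside 14.4 CPM per kb. Promoters were not placed on the peaks, so these values do not set a promoter against another kind of site.

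The remaining peaks of the gene span were narrow, between 227 and 327 bp, and lay 4.6, 7.7, 18.2 and 19.5 kb past the start. Their mean signal over all libraries was 3.37, 4.91, 3.93 and 2.94 CPM in that order. Their log2 fold changes were -0.23, -0.10, 0.24 and 0.13, with no adjusted p below 0.913. The first of them ranged from 7 counts in replicate 3 to 36 in replicate 1 of Vwf+Gata1+ cells, so its interval was wide (-0.79 to 0.33).

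Just past the end of the gene span lay the sixth strongest peak (103822226 to 103822713). It had 13.0, 11.3, 12.6 and 10.5 CPM in replicates 1 to 4 of Vwf+Gata1+ cells and 11.0, 10.9, 10.9 and 13.0 CPM in those of Vwf-Gata1+ cells. The highest libraries of the groups were level, and the log2 fold change was 0.05 ± 0.15 (SE; edgeR adjusted p = 0.983). A peak 292 bp further on had 2.36 ± 0.117 and 2.27 ± 0.32 CPM. The last peak of the region, 29.9 kb past the start, rested on 5 to 26 counts per library. Its log2 fold change was 0.00 ± 0.38 (SE), and -0.55 without replicate 1 of Vwf+Gata1+ cells, which held the 26 (edgeR adjusted p = 0.781 or more in every fit without 1 library).

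**Figure D4:**
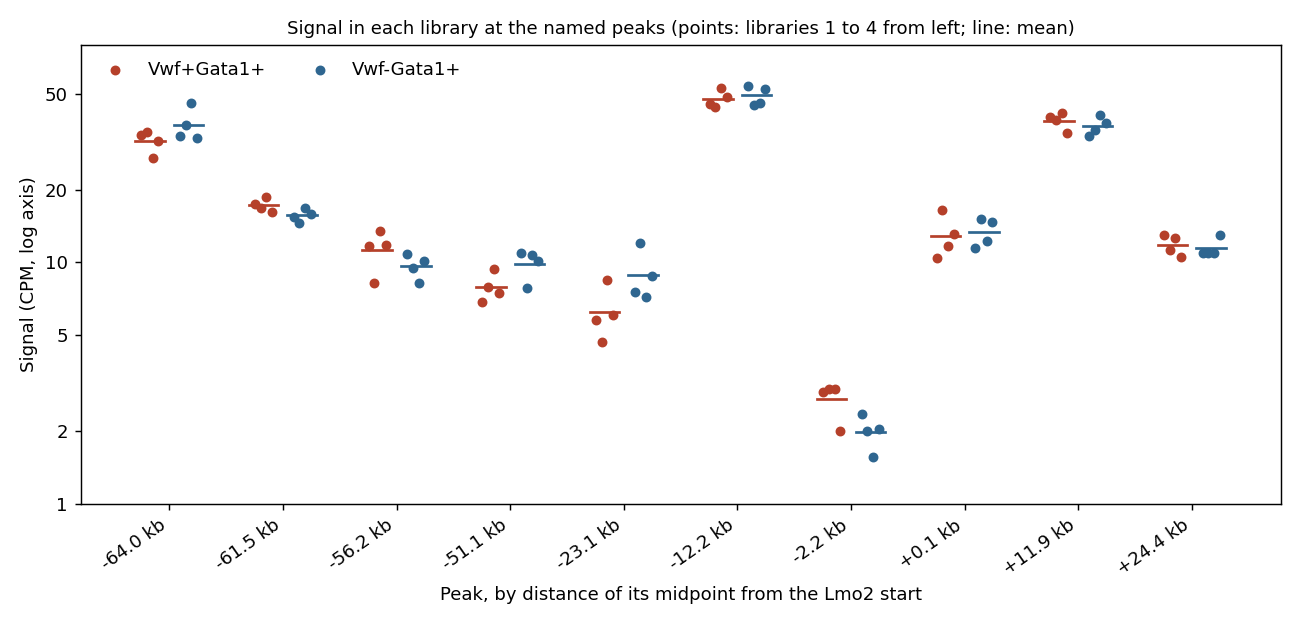
Signal in CPM on a log axis at the 10 peaks named by the rule, with 1 point for each library (replicates 1 to 4 from left to right) and a line at each group's mean, ordered by distance from the Lmo2 start. At every peak the points of the 2 groups overlap, from about 2 CPM at the weak peak 2.2 kb upstream to about 50 CPM at the wide peak 12.2 kb upstream.

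The 3 strongest peaks, at 64.0 and 12.2 kb upstream and 11.9 kb past the start, kept much the same share of the region in every library, from 41.8% to 46.6%. The balance among them varied more. The signal of the peak 64.0 kb upstream over that of the peak 12.2 kb upstream was 0.746, 0.787, 0.511 and 0.652 in replicates 1 to 4 of Vwf+Gata1+ cells and 0.617, 0.823, 1.0 and 0.625 in those of Vwf-Gata1+ cells. The extremes of this ratio were the replicate 3 libraries of the 2 groups, which were also the shallowest library of each group. Whether depth bears on the ratio was not tested. The peak 64.0 kb upstream over the peak 11.9 kb past the start ran from 0.652 to 1.13. The peak 11.9 kb past the start over the peak 12.2 kb upstream ran less widely, from 0.62 to 0.886. The spread between libraries of a group had a median coefficient of variation of 16.5% over the 28 peaks, where counting alone gives a median of 15%. At 19 of the 28 peaks the spread exceeded the counting value of the same peak. It was 14.3% beside 6.79% at the peak 64.0 kb upstream and 8.78% beside 5.71% at the peak 12.2 kb upstream. At the peak 11.9 kb past the start it was 8.25% beside 6.51%. At 12 of the 28 peaks the mean count was under 30 per library, and at 4 it was 100 or more, so differences at the weaker peaks rest on few counts.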

How the data were processed

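The authors deposited raw counts of 134473 peaks in 8 libraries. The submitters' processing notes give mm9 as the build and list Bowtie2, MACS2, Picard, SAMtools, FastQC and Trim Galore. Their roles, the shift of read ends, duplicates and the merging of peaks are not given in the sources used here, and a site split into several peaks or merged into 1 would change widths and counts.

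The whole table was tested as unpaired with edgeR's quasi-likelihood method (TMM scaling, filterByExpr with minimum count 10 and total 15, robust dispersions), which kept 97040 peaks, and Benjamini-Hochberg adjustment ran over all of them. Standard errors are the log2 fold change over the root of F, and intervals cover 95%. CPM used the same scaling. The test was checked on simulated data.

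Within a group no libraries agreed within sampling noise (chi-square per degree of freedom 1.32 to 2.13). Peaks given in every library are the start peak, the 6 strongest and the 3 of lowest p in each direction. The region, classes and rule were chosen with earlier results of these data known. A search of the Lmo2 promoter for motifs was planned and not run, as no sequence of it was used here. Software was edgeR 4.0.16, DESeq2 1.42.0 and limma 3.58.1 under R 4.3.3, with figures by matplotlib 3.10.9 under Python 3.11.15.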

Additional observations from a re-analysis of the deposited data

Results flagged for a closer look

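Of 70 groups of 4 values examined (28 peaks and 7 sums, in each group), 5 held a library far from the other 3, where chance gives about 1 in 20. At the peak of 103771622 to 103772579, replicate 1 of Vwf+Gata1+ cells had 9.75 CPM beside 6.19 to 6.76 CPM. At its neighbour (103772688 to 103772962), replicate 3 of Vwf-Gata1+ cells had 6.63 CPM beside 3.14 to 3.36 CPM. Without those libraries the log2 fold changes were -0.49 and 0.41 in place of -0.29 and 0.12, with adjusted p-values of at least 0.522 and 0.758 in edgeR. At the peak 2.2 kb upstream (103795799 to 103796063), replicate 4 of Vwf+Gata1+ cells had 2.01 CPM beside 2.9 to 3.0 CPM. Just past the gene (103822226 to 103822713), replicate 4 of Vwf-Gata1+ cells had 13.0 CPM beside 10.9 to 11.0 CPM. The summed signal of all 17 upstream peaks was 193 CPM in replicate 3 of Vwf+Gata1+ cells beside 179 to 181 CPM.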

How the results depend on the processing

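No peak of the Lmo2 region was called in any alternative: a replicate block, RLE or total count scaling, no filter, a CPM minimum of 1 in 4 libraries, limma-voom with quality weights, DESeq2, an adjusted p under 0.1, or any 1 library left out. The lowest adjusted p in the region was 0.19 in edgeR with the block, at the peak 23.1 kb upstream, beside 0.555 without it. At the peaks 51.1 and 64.0 kb upstream the edgeR adjusted p was 0.409 and 0.423 with the block. Without it these were 0.742 and 0.751. The log2 ratio of the summed signal moved by less than the spread between libraries under other scalings, bounds and left-out libraries. At the 10 peaks with values in every library, 2 of 150 log2 fold changes changed sign, both without replicate 1 of Vwf+Gata1+ cells: 0.04 in place of -0.06 at the gene start (-0.19 to 0.04 over the libraries left out) and -0.01 in place of 0.05 just past the gene (-0.01 to 0.11). Of all 28 peaks, 11 changed sign without at least 1 library. Over all tested peaks, 13 calls were higher in Vwf+Gata1+ cells and 1 was lower. Total count scaling gave 21 and 6, DESeq2 8 and 0 (4090 at an unadjusted p under 0.05), limma-voom 1 and 0 (7273), and an adjusted p under 0.1 48 and 12, by construction. Leaving out 1 library gave 3 to 66 higher and 0 to 10 lower, replicate 1 of Vwf+Gata1+ cells accounting for the 66 and 10, and replicate 3 of Vwf-Gata1+ cells giving 51 and 4. The replicate block gave 375 and 136. The cause was not tested. The labels do not tie equal numbers to a shared batch or animal. Deviations of same-numbered libraries correlated at 0.295, 0.167, 0.0634 and 0.0168 for numbers 1 to 4, all positive. Among 4 candidates each, the closest library of the other group had the same number for 5 of 8 libraries, which is a hint in the data only. The weak peaks rest on few counts, and standard errors in the region ran from 0.09 to 0.38.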
